A study of Homo sapiens with 10 samples.

Results

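Transcripts of 10 circadian clock genes were followed in the human line MIA PaCa-2, derived from a pancreatic ductal adenocarcinoma, after 24 h with 10 µM hydroxyprogesterone caproate (HPC), a synthetic progestin ester, or with the same volume of the vehicle DMSO. The genes were chosen by symbol, and they are 10 of the 16734 genes in the deposited table: PER1, PER2, PER3, CRY1, CRY2, CLOCK, NR1D1, NR1D2, BHLHE40 and BHLHE41. The series asked how the transcriptome of these cells responds to HPC. Sequencing of polyadenylated RNA covered 5 samples in DMSO and 5 in HPC, which the labels call biological replicates. No day of culture and no batch is labelled, so the p-values reflect the scatter among these libraries, which may be partly technical. Both groups are the same line, grown with serum and antibiotics, so the values describe 1 line. In RNA from whole cultures, fewer cells of a kind and less RNA per cell cannot be told apart.

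The mammalian clock is a feedback loop of transcription. CLOCK, or its relative NPAS2, pairs with BMAL1 and activates genes through E-boxes, short DNA elements. Among those genes are the PER and CRY genes, whose proteins return to the nucleus and repress the pair, and BHLHE40 and BHLHE41 (also called DEC1 and DEC2), which compete for the same elements. A second loop runs through NR1D1 and NR1D2, the REV-ERB receptors, which repress BMAL1 against the ROR receptors that activate it. Several of these genes, PER1 and BHLHE40 among them, also respond quickly to hormones, serum and stress. Only 1 time was sampled, so a change of level and a shift in the phase of a rhythm cannot be told apart.

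After 24 h in HPC, 8 of the 10 genes were higher and 2 were lower, counting CRY2 from a fit with no filter on low values. BHLHE40 changed most, to 9.51-fold of its DMSO level on the fitted scale, and its paralogue BHLHE41 moved the other way, to 0.371-fold. NR1D1 (2.43-fold) and PER1 (2.08-fold) followed, CRY1 and CRY2 rose less, and NR1D2, CLOCK and PER2 rose least. PER3 fell to 0.744-fold. Most tested genes changed, so the sizes carry more than the calls. Of 9150 genes tested, 87.7% had an adjusted p under 0.05 (limma, Benjamini-Hochberg), 42.9% higher and 44.8% lower. That split was 3922 against 4099 genes. It became 2957 against 5015 after scaling each library by its sum without the mitochondrially encoded genes, here called the non-mitochondrial sum. With that scaling 6 of the 9 clock genes tested were called higher and 2 lower, and PER2 lost its call. Without that scaling, at least 2-fold changes were found for 17.4% of the tested genes and for 4 of the 9 clock genes tested. PER1, among these 4, entered the test only through HPC, the group in which it is high. Its log2 fold change of 1.06 ranged from 0.566 to 1.3 over alternative settings, and was 0.906, under 2-fold, with the non-mitochondrial sum.

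The deposited unit is FPKM, which divides the fragments of a gene by its length and by the size of the library. The test took genes that reached 1 FPKM in 5 or more libraries, on log2(FPKM + 0.1), a scale that understates the fold change of low genes. CRY2 lay under 1 FPKM in every library and was not tested there. PER1 reached 1 FPKM in 0 DMSO and in 5 HPC libraries, so it entered the test only through the group in which it is high. In the other direction, 5 DMSO and 3 HPC libraries of BHLHE41 reached 1 FPKM. Reads recovered from the FPKM steps put the depth of a DMSO library at 71603127 to 82219086 reads, and that of an HPC library at 65851927 to 74477678. Each clock gene had between 286 and 12941 reads in a library.

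The length by which the authors divided was not the length of 1 transcript. It can be read from the recovered reads, and for 68.5% of 14327 genes it matched, within 0.5%, the exon bases of every annotated transcript added together (GENCODE 29). The length with shared exons counted once, here called merged, was matched for 5.14%. A gene with many annotated transcripts is therefore listed too low against a gene with few. PER1, with 19 transcripts, was divided by 27984 bases against 7002 merged bases. For NR1D1, with 1 transcript, the length was 2630 against 2772 bases. CLOCK was divided by 33334 bases, more than the 26444 that its transcripts add up to in this annotation. This constant of each gene does not alter the ratio between libraries, but it does set which genes pass a filter in FPKM and how far 0.1 FPKM weighs. Levels were therefore compared between genes only as reads per kilobase of merged exon, scaled to library size as in FPKM and called merged FPKM here. On that scale all 10 genes lay at 1.06 or above in every library, and a fit chosen after seeing the data called 8 higher and 2 lower, against 86.7% of 10688 genes called.

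The labelled cell type was checked against markers. The 6 epithelial markers summed to between 182 and 199 FPKM in DMSO and between 213 and 229 in HPC. The keratin genes among them did not move alike. KRT8 lay between 50 and 53 FPKM in DMSO and between 55.2 and 61.4 in HPC, and KRT18 between 109 and 119 and between 148 and 156. KRT19 was lower in HPC, at 8.71 to 11.2 against 22.2 to 26.6 FPKM, as was KRT7, at 0.00366 to 0.0663 against 0.177 to 0.264. The mesenchymal gene VIM lay between 682 and 718 FPKM in DMSO and between 322 and 346 in HPC. ZEB1, also mesenchymal, went the other way, between 1.22 and 1.35 FPKM in DMSO and between 1.7 and 1.9 in HPC. EPCAM and CDH1, which mark most epithelia, were at most 0.0111 FPKM. Of the markers of other cells, PTPRC, PECAM1 and DCN were at most 0.00844 FPKM, and the summed fibroblast markers lay between 0.225 and 0.321 FPKM in DMSO and between 0.0289 and 0.0563 in HPC. CD68, a lysosomal gene of leukocytes and other cells, lay between 2.37 and 3.34 in DMSO and between 8.33 and 10.9 in HPC, and CDH5, an endothelial cadherin gene, between 1.4 and 1.5 in DMSO and between 0.0068 and 0.0229 in HPC. Their part in the clock gene values was not tested.

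Because the loop is wired through short promoter elements, the clock genes' own elements are shown first. RefSeq promoter windows of GRCh38.p14, from 250 bases before to 50 after each gene's start, were available for all 10 genes, and 4 of them have 2 starts. Both strands were searched for the E-box CACGTG, its variant CACGTT and the D-box TTATGNAA, and no 2 of these matches overlapped. A canonical E-box stood in windows of 4 of the 10 genes, each shown in 30 bases with the match in capitals and the bases before the start counted to its first letter. BHLHE40 and BHLHE41, which moved in opposite directions, both carried it, 245 and 48 bases before the start.
BHLHE40 E-box, chr3:4979187-4979216, plus strand: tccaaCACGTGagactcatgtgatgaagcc
BHLHE41 E-box, chr12:26125068-26125097, minus strand: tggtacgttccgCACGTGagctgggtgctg
PER1 E-box, chr17:8152560-8152589, minus strand: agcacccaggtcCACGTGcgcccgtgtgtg
NR1D2 first E-box, chr3:23945954-23945983, plus strand: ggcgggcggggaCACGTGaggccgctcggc
NR1D2 second E-box, chr3:23946004-23946033, plus strand: gggccgcagggaCACGTGggggcgggggcg

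The variant, which reads AACGTG on the other strand, stood in windows of PER2, CRY1, CRY2, CLOCK and NR1D1. PER3 had neither the E-box nor the variant. The variant is shown for PER2, which rose least, and NR1D1, which rose more than any member but BHLHE40.
PER2 variant, chr2:238288790-238288819, minus strand: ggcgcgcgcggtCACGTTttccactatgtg
NR1D1 variant, chr17:40100740-40100769, minus strand: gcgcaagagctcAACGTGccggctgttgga

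The D-box, at which the proteins of DBP, TEF, HLF and NFIL3 bind, stood in windows of 3 genes. They are shown because DBP and NFIL3 transcripts moved far apart in these libraries, as given below.
PER1 D-box, chr17:8152416-8152445, minus strand: agtgcccggcaTTATGCAAcccgcctcccc
PER3 D-box, chr1:7784103-7784132, plus strand: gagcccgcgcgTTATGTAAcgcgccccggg
NR1D2 D-box, chr3:23945916-23945945, plus strand: gtgacgcggcaTTACATAAtgggcgctgag

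Among all 35116 windows of the same length, 7.26% held the E-box, 5.34% the variant and 3.3% the D-box. Counted likewise by window, the members' 14 windows held them in 4, 5 and 3. The form TNGGTCA, read by ROR and REV-ERB receptors, was in 3 of the 14, those of CRY2, CLOCK and NR1D2, and in 9.45% of all windows. The cAMP element TGACGTCA (1.85% of all windows), the ATF4 and CEBP element TGATGNAA (3.62%) and the palindromic steroid receptor element (0.39%) were in none of the members' windows, which says only that these letters are not in them.

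CLOCK (chromosome 4, 55427903 to 55547138, GRCh38), the activator, rose by 0.37 on the log2 scale. Its DMSO libraries 1 to 5 measured 1.85, 1.76, 1.85, 1.73 and 1.71 FPKM. The HPC libraries measured 2.28, 2.25, 2.33, 2.31 and 2.47 FPKM. Every HPC library lay above every DMSO library (log2 fold change 0.37 ± 0.038 SE, limma adjusted p = 7.45e-07). Of the tested genes, 73.4% had a lower value of this change, a share that includes the genes that fell. By size in either direction, CLOCK ranked only 5147 among the 9150 tested genes.

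The 3 PER genes, which encode the repressors that scaffold the PER and CRY complex, did not move together. PER1 (chromosome 17, 8140472 to 8156506) measured 0.611, 0.574, 0.627, 0.654 and 0.636 FPKM in DMSO libraries 1 to 5. The HPC libraries gave 1.45, 1.44, 1.35, 1.43 and 1.33 FPKM. The groups were far apart, with between 1177 and 1444 reads in a DMSO library and between 2456 and 2809 in an HPC library. PER1 thus rose by 1.06 ± 0.047 SE on the log2 scale (adjusted p = 1.16e-10, limma), and by 1.14 ± 0.048 SE in merged FPKM, where 0.1 weighs less against the level.

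PER2 (chromosome 2, 238244038 to 238290102) measured 1.13, 0.906, 0.977, 1.03 and 1.1 FPKM in DMSO. After HPC the values were 1.32, 1.15, 1.14, 1.1 and 1.21 FPKM. The groups overlapped, with HPC replicate 4 below DMSO replicate 1. The rise of 0.19 ± 0.064 SE on the log2 scale had an adjusted p of 0.0148 (limma), and it was 0.03 with an adjusted p of 0.634 with the non-mitochondrial sum (adjusted p from 0.000336 to 0.634 over the alternatives). That scaling is relevant because the 13 mitochondrially encoded genes held between 21.9% and 23.8% of the FPKM in DMSO and between 13.8% and 15.9% in HPC. It moved the median of the tested genes from -0.01 to -0.18 on the log2 scale, and no other tested clock gene lost its call with it.

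PER3 (chromosome 1, 7784320 to 7845177), whose protein is the least required for the rhythm of the PER proteins, measured 1.63, 1.46, 1.6, 1.7 and 1.59 FPKM in DMSO. With HPC the libraries gave 1.15, 1.14, 1.12, 1.25 and 1.13 FPKM. All 5 HPC libraries lay below all DMSO libraries (log2 fold change -0.43 ± 0.047 SE, limma adjusted p = 1.49e-06). Its annotated exons share 868 of their 8099 merged bases with UTS2 on the other strand, a gene not analysed here, and whether the counting used strand is not given in the sources used here.

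**Figure D1:**
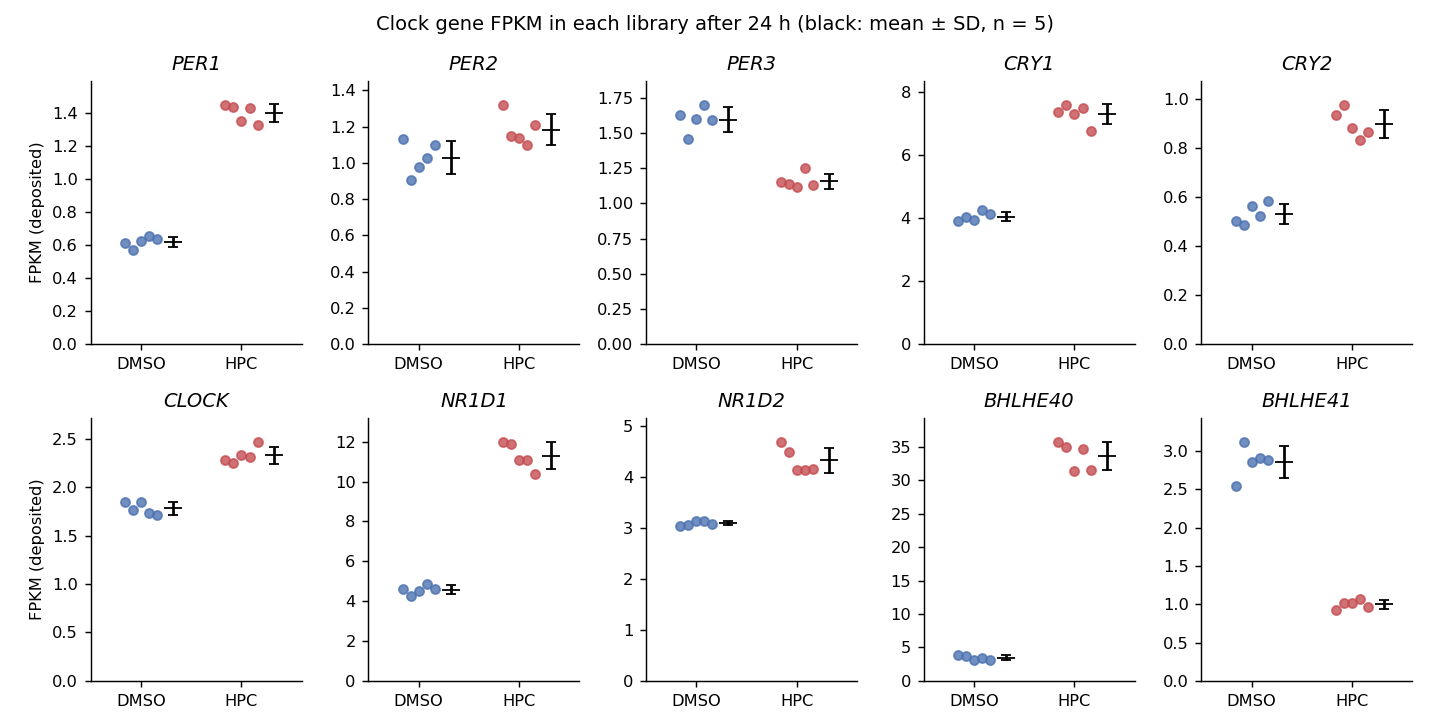
FPKM of each clock gene (vertical axis, from 0) in the 5 DMSO libraries (blue) and the 5 HPC libraries (red), 1 point per library, with the mean ± SD in black beside them. The groups stand apart for 9 of the 10 genes, PER2 being the exception, and BHLHE41 and PER3 are the genes whose HPC points lie below. Groups also stood apart for 79.6% of all tested genes, a set that does not hold CRY2.

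Of the cryptochromes, the DNA-photolyase relatives that carry most of the repression, CRY1 (chromosome 12, 106991364 to 107093829) measured 3.9, 4.03, 3.93, 4.26 and 4.12 FPKM in DMSO. The HPC libraries gave 7.37, 7.59, 7.3, 7.49 and 6.75 FPKM. Every HPC value exceeded every DMSO value (1.78-fold on the fitted scale, log2 fold change 0.83 ± 0.037 SE, limma adjusted p = 1.05e-10).

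CRY2 (chromosome 11, 45847118 to 45883248) measured 0.503, 0.488, 0.565, 0.524 and 0.586 FPKM in DMSO. After HPC the values were 0.934, 0.977, 0.881, 0.833 and 0.866 FPKM. Its libraries held between 619 and 805 reads in DMSO and between 952 and 1157 in HPC, and its divisor was 17316 bases against 6200 merged bases. With no filter CRY2 rose by 0.66 ± 0.057 SE on the log2 scale (adjusted p = 1.18e-06 by limma, where 67.4% of 16734 genes were called). In merged FPKM the rise was 0.72 ± 0.067 SE (adjusted p = 1.18e-07). Both cryptochromes thus rose, with no overlap between groups.

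NR1D1 (chromosome 17, 40092787 to 40100725), which encodes REV-ERB alpha, a heme-binding nuclear receptor that represses BMAL1, measured 4.63, 4.28, 4.53, 4.88 and 4.59 FPKM in DMSO. With HPC the libraries gave 12, 11.9, 11.1, 11.1 and 10.4 FPKM. The lowest HPC library was above the highest DMSO library by a wide margin (log2 fold change 1.28 ± 0.044 SE, limma adjusted p = 8.52e-12), and 95.3% of the tested genes had a lower value of this change. Its neighbour is THRA, the thyroid hormone receptor alpha gene, and 263 of its 2772 exon bases (9.49%) are also exon of THRA on the other strand. THRA moved the other way, with 4.46 ± 0.226 FPKM in DMSO and 0.673 ± 0.0807 in HPC (SD, n = 5), or -2.56 ± 0.067 SE on the log2 scale (limma adjusted p = 5.77e-13). THRA reached 1 FPKM in 5 DMSO and 0 HPC libraries, so it entered the test only through the group in which it is high. How many reads the shared stretch gave to either gene was not tested.

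NR1D2 (chromosome 3, 23945260 to 23980618), which encodes the related receptor REV-ERB beta, measured 3.05, 3.07, 3.15, 3.14 and 3.08 FPKM in DMSO. The HPC libraries gave 4.7, 4.49, 4.15, 4.14 and 4.17 FPKM. The groups did not overlap, and HPC libraries 1 and 2 were the highest (log2 fold change 0.47 ± 0.039 SE, limma adjusted p = 7.24e-08).

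BHLHE40 (chromosome 3, 4979116 to 4985323), a repressor that also responds to hypoxia and stress in many cells, measured 3.88, 3.8, 3.14, 3.37 and 3.12 FPKM in DMSO. After HPC the values were 35.8, 35, 31.4, 34.7 and 31.5 FPKM. Reads rose from between 1169 and 1509 to between 10882 and 12941 per library. Its log2 fold change of 3.25 ± 0.065 SE (limma, adjusted p = 1.45e-13) ranked 76 by size among the 9150 tested genes. BHLHE40 was the highest of the 10 clock genes in HPC, at 46 ± 2.82 merged FPKM (SD, n = 5).

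BHLHE41 (chromosome 12, 26120026 to 26125127), its paralogue with a like DNA-binding domain, measured 2.54, 3.12, 2.85, 2.91 and 2.88 FPKM in DMSO. With HPC the libraries gave 0.927, 1.01, 1.02, 1.07 and 0.958 FPKM. Every HPC library lay below every DMSO library, with between 286 and 344 reads against between 857 and 1062 (log2 fold change -1.43 ± 0.054 SE, limma adjusted p = 2.29e-11). The exons of BHLHE41 share 162 bases (4.1%) with SSPN on the other strand, which encodes sarcospan and fell as well, with 1.38 ± 0.0809 FPKM in DMSO and 0.241 ± 0.0537 in HPC (SD, n = 5, limma adjusted p = 1.27e-10). SSPN too reached 1 FPKM in 5 DMSO and 0 HPC libraries and was tested only through DMSO. The part of those shared bases was not tested.

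Across the 9 tested genes, 8 had no overlap between the groups, as did 79.6% of all tested genes. The median log2 fold change of these 9, which exclude CRY2 and hold PER1 only through HPC, was 0.47, beside -0.01 for all tested genes.

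**Figure D2:**
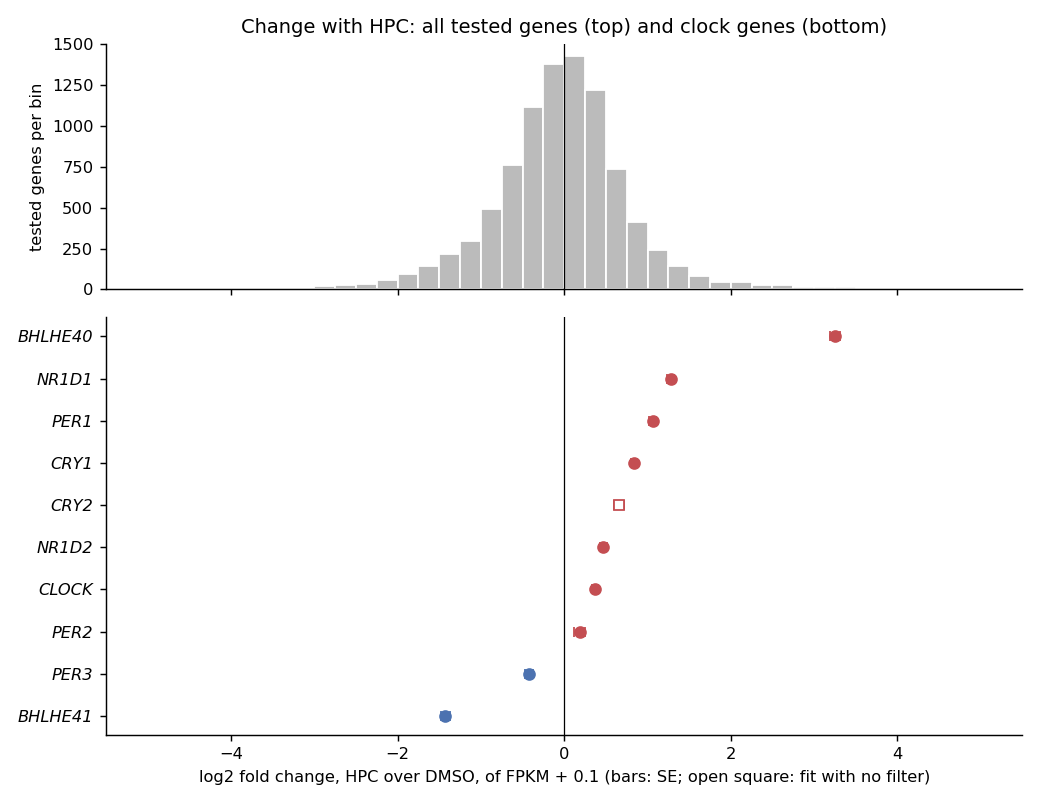
Log2 fold change of HPC over DMSO on FPKM + 0.1 (horizontal axis) for all 9150 tested genes, as a count per bin of 0.25 (top), and for the clock genes with bars for the SE (bottom; the open square is CRY2, from the fit with no filter). BHLHE40 at 3.25 lies in the thin right tail, while PER2, CLOCK and NR1D2 lie within the bulk of the distribution.

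The order of the genes by level changed between the groups. In merged FPKM, CRY1 was the highest in DMSO at 7 ± 0.251 (SD, n = 5), followed by NR1D2 at 6.3 ± 0.0879, PER3 at 5.84 ± 0.323, CLOCK at 5.05 ± 0.181, BHLHE40 at 4.73 ± 0.492 and NR1D1 at 4.35 ± 0.206. The ranges of NR1D2 and PER3 overlapped, as did those of CLOCK and BHLHE40 and those of BHLHE40 and NR1D1. Below them stood BHLHE41 at 3.29 ± 0.239, PER1 at 2.48 ± 0.121, CRY2 at 1.49 ± 0.115 and PER2 at 1.31 ± 0.114, the last pair with overlapping ranges. In HPC no neighbours overlapped in the order BHLHE40, CRY1, NR1D1, NR1D2, CLOCK, PER1, PER3, CRY2, PER2 and BHLHE41. PER1 thus passed PER3, at 5.59 ± 0.218 against 4.25 ± 0.19 merged FPKM, and BHLHE41 came last at 1.14 ± 0.063. In deposited FPKM, by contrast, PER1 and CRY2 were the lowest of the 10 in DMSO, and PER2 stood above both.

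**Figure D3:**
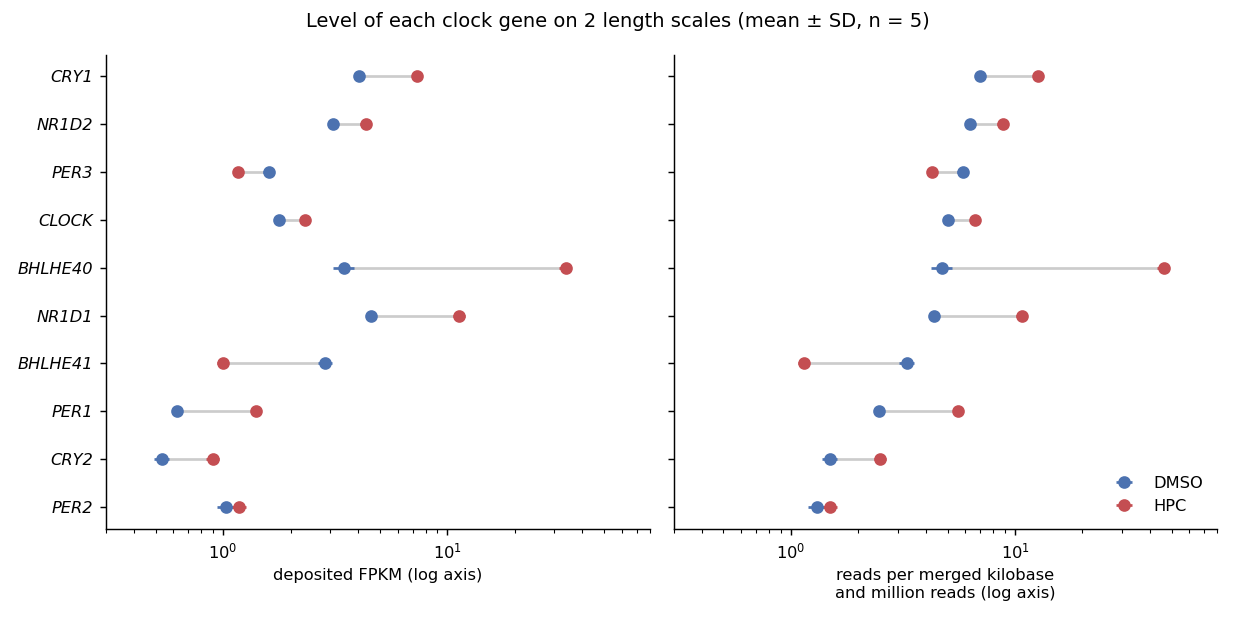
Mean level ± SD (n = 5) of each clock gene in DMSO (blue) and HPC (red), as deposited FPKM (left) and as merged FPKM, the reads per kilobase of merged exon scaled to library size (right), both on log axes. PER1, PER3, CRY2 and CLOCK shift most to the right between the panels, since the authors' divisor was 4, 3.66, 2.79 and 2.83 times their merged length.

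Paralogues were compared within each library as the log2 ratio of their values, each with 0.1 FPKM added. A scaling common to the library cancels in such a ratio except for the added 0.1 FPKM, which weighs most on low genes. Because the divisors differ, a ratio of 0 is not an equal level. The test was an exact permutation over all ways to assign 10 libraries to 5 and 5, two-sided, whose smallest p is 0.00794, and 6 pairs were compared. All 6 pairs reached that smallest p, also after Benjamini-Hochberg adjustment over the 6 pairs (0.00794), so the sizes tell the pairs apart.

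The ratio of BHLHE40 to BHLHE41 moved from 0.26 ± 0.193 to 4.94 ± 0.118 (SD, n = 5, log2), a shift of 4.68 or 25.6-fold. The ratio of PER1 to PER3 turned from -1.23 ± 0.0355 to 0.25 ± 0.0576, a shift of 1.48. For PER1 against PER2 the shift was 0.87, and for PER2 against PER3 it was 0.61, so the PER genes were ranked PER1, PER2 and PER3 by response. NR1D1 gained 0.81 on NR1D2. CRY1 gained 0.18 on CRY2, a difference that was not called with 0.01 FPKM added (0.11, exact permutation, adjusted p = 0.167) or after quantile normalization (0.04, adjusted p = 0.548), within 0.04 to 0.41 over the alternatives. Whether CRY1 and CRY2 responded unequally thus depended on these settings.

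**Figure D4:**
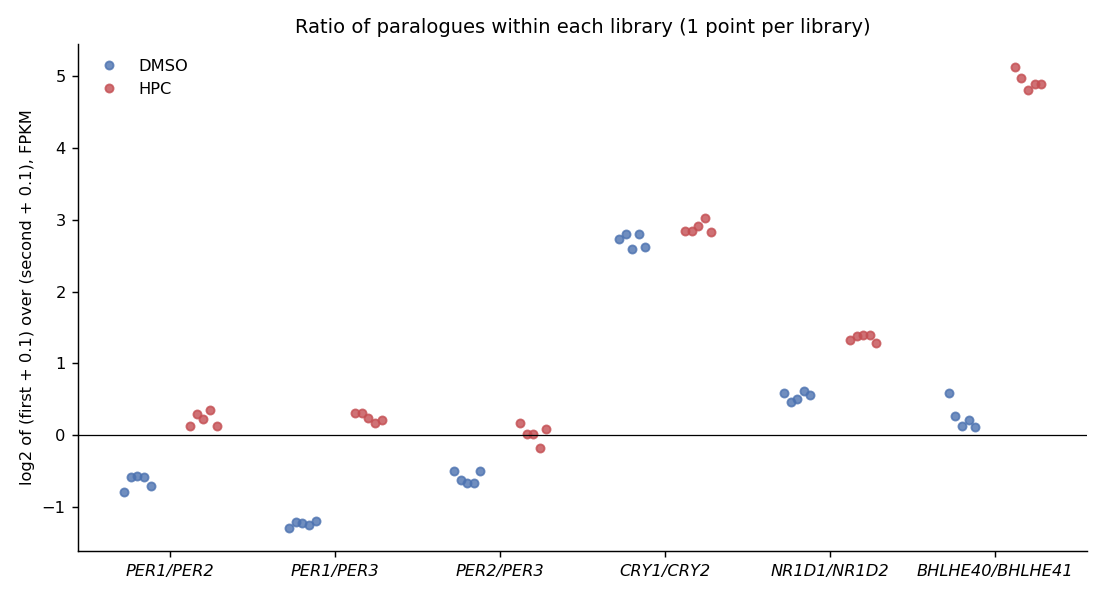
Log2 ratio of the first to the second gene of each pair (vertical axis, FPKM + 0.1) in every DMSO (blue) and HPC (red) library, 1 point per library. The BHLHE40 and BHLHE41 pair shifts by 4.68, the PER1 and PER3 pair crosses 0, and the CRY1 and CRY2 pair moves by 0.18.

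A list of 31 further genes of the clock, of which 30 are in the table, was read beside the 10. Among the 24 of them that were tested, 12 rose, 8 fell and 4 missed the threshold (median 0.12 on the log2 scale, beside -0.01 for all tested genes). Over all tested genes 87.7% were called, 42.9% higher and 44.8% lower, so the share called in the list is no larger than that background. With the non-mitochondrial sum the same list gave 7 higher and 11 lower (median -0.04), so only the larger changes are described by direction. BMAL1 and BMAL2 entered the test only through HPC, and DBP only through DMSO.

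Among the activators, BMAL1, the partner of CLOCK, had 0.624 ± 0.0323 FPKM in DMSO and rose to 1.09 ± 0.067 (SD, n = 5), a gain of 0.71 ± 0.054 SE on the log2 scale (limma adjusted p = 2.53e-08). Its relative BMAL2 rose by 0.82 on the log2 scale. NPAS2, which can stand in for CLOCK, had 5.4 ± 0.147 FPKM in DMSO and fell to 2.1 ± 0.155, or -1.33 ± 0.046 SE on the log2 scale (limma adjusted p = 8.81e-12), while CLOCK itself rose by 0.37. RORA and RORB lay under the filter, at 0.13 FPKM or less in every library.

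The output genes split. DBP, an activator through the D-box and a direct target of CLOCK and BMAL1, had 2.19 ± 0.0394 FPKM in DMSO and fell to 0.369 ± 0.0846 (SD, n = 5), or -2.31 ± 0.1 SE on the log2 scale (limma adjusted p = 8.85e-11). NFIL3, the repressor that competes at the same element, had 6.32 ± 0.359 FPKM and rose to 26 ± 0.985, or 2.03 ± 0.04 SE on the log2 scale (limma adjusted p = 4.82e-14). TEF, another D-box activator, measured 2.31 ± 0.155 and 2.52 ± 0.134 FPKM (adjusted p = 0.0428, and 0.462 with a turned sign with the non-mitochondrial sum). HLF and CIART were at most 0.0472 FPKM.

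Of the genes for turnover of PER and CRY proteins, 11 were tested, 6 rose, 3 fell and 2 missed the threshold, with none changed 2-fold. The casein kinase genes CSNK1A1 and CSNK1E, whose products phosphorylate PER proteins, rose by 0.86 and 0.56 on the log2 scale, and CSNK1D measured 5.46 ± 0.202 and 5.27 ± 0.231 FPKM (SD, n = 5, limma adjusted p = 0.212). With the non-mitochondrial sum CSNK1D was called lower, at -0.22 on the log2 scale (limma adjusted p = 8.77e-05). GSK3A rose by 0.55 and its relative GSK3B fell by 0.28. The phosphatase subunit gene PPP1CC fell by 0.87 and PPP1CA by 0.36. The ubiquitin ligase gene FBXW11 had a log2 fold change of 0.13 and PPP1CB of 0.13. Under the non-mitochondrial sum these were -0.03 for FBXW11 and -0.04 for PPP1CB.

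Among partners of the repressor complex, NONO, an RNA-binding protein that associates with PER, had 52.1 ± 0.727 FPKM in DMSO and fell to 23 ± 0.942 (SD, n = 5), or -1.18 ± 0.028 SE on the log2 scale (limma adjusted p = 2.39e-13). TIMELESS, which also serves at replication forks, fell by 0.77 on the log2 scale. SIRT1, a deacetylase that acts on PER2 and BMAL1, rose by 0.67. CIPC, an inhibitor of CLOCK, and TIPIN missed the threshold (limma, adjusted p = 0.494 and 0.0591). Both depended on the scaling, since CIPC was called lower with the non-mitochondrial sum (-0.14, limma adjusted p = 0.000969) and TIPIN higher after quantile normalization (0.18, limma adjusted p = 0.0124).

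**Figure D5:**
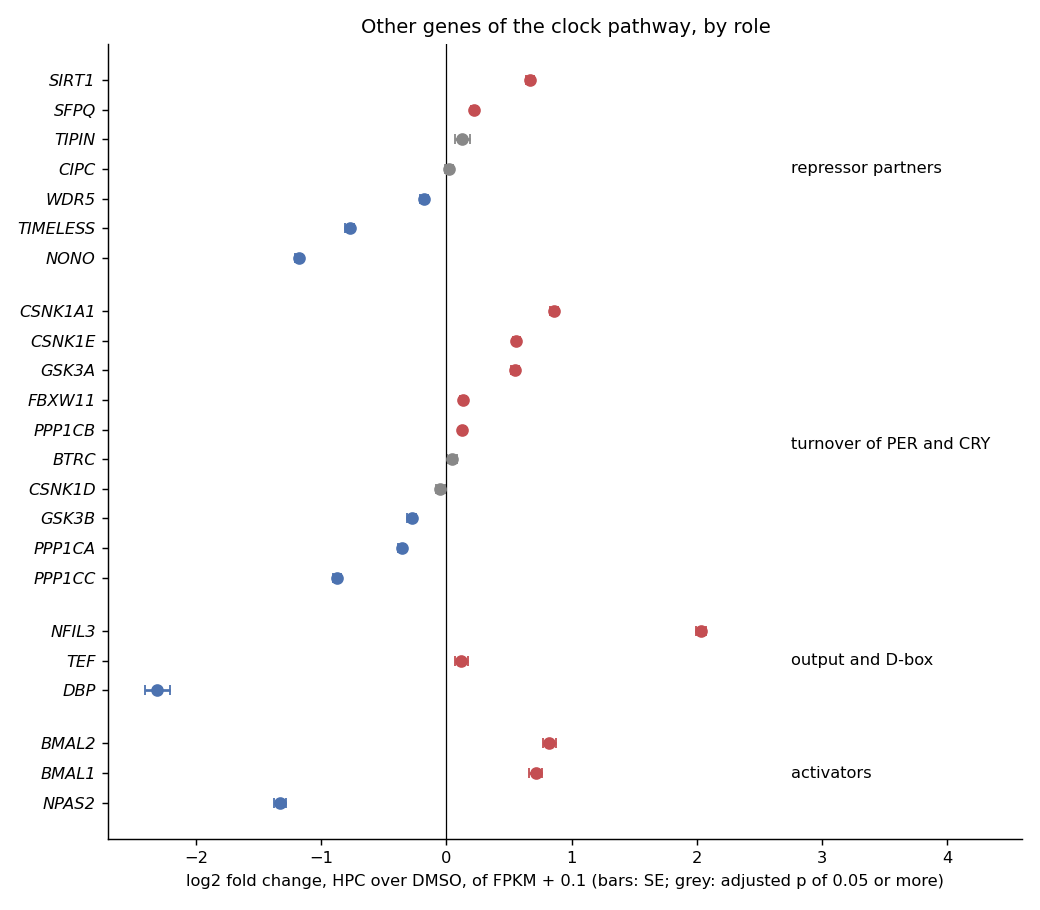
Log2 fold change of HPC over DMSO on FPKM + 0.1 (horizontal axis, bars for the SE) for tested genes of the clock pathway list, grouped by role, with grey for genes at an adjusted p of 0.05 or more. DBP at -2.31 and NFIL3 at 2.03 lie at the ends, and NPAS2 lies opposite BMAL1 and BMAL2.

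The genes whose log2 values, each less its DMSO mean, lay nearest to those of BHLHE40 over the 10 libraries were TRIB3, MT1E and OSGIN1 (Euclidean distances of 0.338, 0.349 and 0.361 among 9149 genes). TRIB3 rose from 8.1 ± 0.271 to 75.9 ± 4.6 FPKM and OSGIN1 from 0.731 ± 0.044 to 7.43 ± 0.833 FPKM (SD, n = 5). OSGIN1 was under 1 FPKM in DMSO, so it was among the genes searched only through HPC, the group in which it is high. MT1E, a metallothionein gene whose near-identical copies can share reads, measured 25.5 ± 4.09 and 225 ± 4.86 FPKM. Distances of this kind mostly reflect a like difference between the 2 groups.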

How the data were processed

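For 16734 genes and 10 libraries, the authors deposited 1 table of FPKM, per the labels. Tools named in the submitters' processing notes are STAR 2.7.7a, fastp 0.23.2 and edgeR, with GRCh38.p13 as the build, and their roles are not stated. Which program counted reads, with which strand setting and annotation, is not given in the sources used here. Dividing out the FPKM steps gave whole reads, within 0.0001 of a read, for 100% of the 15208 genes above 0 in at least 3 libraries. Coordinates and exon lengths come from GENCODE 29 on GRCh38, matched by gene ID for all 10 genes.

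The comparison of groups used limma 3.58.1 (R 4.3.3), with a mean-variance trend and robust moderation, two-sided p-values and Benjamini-Hochberg adjustment over all tested genes at 0.05. The procedure was also run on simulated data in which few genes changed. Most tested genes changed here, so that run does not check the share called. The genes named are the 10 members, the pathway list, genes on the members' exons and the 3 genes nearest to the member that changed most. The members and lists were chosen with earlier results of these data known. Between-library CVs of the members were 1.4% to 10.4%, and counting alone gives 0.909% to 5.67%. In variance, not CV, pairs of libraries in a group differed by 13.2 to 32 times counting noise (chi-square per degree of freedom). None was therefore taken for a copy of another. Alternatives covered the pseudocount, filter, scaling, test, replicate block and each library left out. Tables and plots were made with pandas 2.3.3, NumPy 2.4.6, matplotlib 3.10.9 and SciPy 1.17.1 in Python 3.11.15. Some genes of the pathway list, though counted in its totals, are not reported here by name.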

Additional observations from a re-analysis of the deposited data

Results flagged for a closer look

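PER3 in HPC replicate 4 measured 1.25 FPKM, apart from the other 4 HPC libraries at 1.12 to 1.15. The gap was 0.762 of the group's range, above the 95% limit of 0.71 for 5 libraries (Dixon). Of 20 groups of 5 values checked, this was the only 1, and chance gives about 1 in 20. This library still lay below every DMSO library.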

How the results depend on the processing

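Counts of 7 higher and 2 lower clock genes were recomputed under 22 alternatives, of which the merged exon length was chosen after seeing the data. With a filter of at least 5 FPKM only 3 members were tested, 3 higher and 0 lower, and the calls over all genes went from 8021 to 3805, since 4240 genes were tested. Leaving out 1 library gave 6 to 7 higher and 2 to 2 lower, with 7433 to 7717 calls over all genes, and PER1 was then not tested when an HPC library was left out. No direction reversed in the alternatives run for each gene or ratio, which numbered 21 or 22 for the clock genes other than PER1 (16) and CRY2 (1), and 14 for each paralogue ratio. PER2 lost its call with the non-mitochondrial sum (0.03), and the share of higher calls over all genes went from 3922 of 8021 to 2957 of 7972. Limma's voom on the recovered reads called 3926 genes higher and 4101 lower. Whether the replicate numbers pair the libraries is not labelled and was not tested. The correlations of same-numbered deviations were -0.0593, 0.066, 0.199, 0.0165 and 0.136. Each library was compared with the 5 of the other group, and 4 of 10 libraries correlated best with their own number. With a replicate block 7 clock genes were higher and 2 lower, 7969 genes were called, and the 6 paralogue ratios kept their sizes at an exact p of 0.0625, the smallest that 5 pairs allow. With at least 65851927 reads per library, depth limits RORB, CIART and HLF, not the members.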
